A study of Mus musculus with 20 samples.

Results

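The genes described here are 9 mouse genes that make, move, break down or sense monoamine transmitters: *Th*, *Ddc*, *Slc18a2*, *Slc6a3*, *Slc6a2*, *Slc6a4*, *Maoa*, *Maob* and *Taar1*. They were chosen by symbol, as enzymes and direct targets of methamphetamine (Meth). No measured value entered the rule, but earlier results of these data were known. They are 9 of the 20972 named genes on the array and hold 11 of its 55681 probes, with 2 probes each for *Ddc* and *Slc18a2* and 1 for each of the others. Expression was measured on 20 one-colour Agilent arrays, 1 mouse per array, in 4 groups of 5 mice. All mice were male C57BL/6J and carried a Tet-binding transgene driven by the *GFAP* promoter, which is active in astrocytes. The Tat+ mice also carried the TRE-driven gene for the HIV-1 protein Tat, and the Tat− mice did not. All mice, controls included, were given doxycycline at 100 mg/kg for 7 days. Tat−/Sal and Tat+/Sal mice received saline, and Tat−/Meth and Tat+/Meth mice received Meth at 2 mg/kg, for 7 days.

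The sample labels and the methods of the study differ on what was taken and when. The labels give mice aged 6 to 7 weeks and the left hemisphere of the perfused brain, taken 24 h after the last injection. The methods give mice aged 3 to 5 months and the caudate putamen, taken after 7 days of abstinence and 1 h after a challenge with 1 mg/kg Meth that all mice received, the saline groups too. In the second account, the saline groups are mice with a single Meth dose and not Meth-free mice. All 12 markers of striatal projection neurons in the list used here were well above background on all 20 arrays. Of 8 markers of cortical excitatory neurons, 5 were. Over the arrays, the log2 of the summed signal was 19.97 to 20.30 for the 12 striatal markers and 9.61 to 11.77 for the 8 cortical ones. The *Tat* transcript itself was not analysed here. The 5 Tat−/Meth arrays were alone on 1 of the 3 slides, so that in each comparison with Tat−/Meth the group and the slide cannot be told apart. The 5 Tat−/Sal arrays were all on 1 other slide and the 5 Tat+/Sal arrays all on another, joined only by Tat+/Meth arrays on both. Before scaling, the log2 of the 75th percentile was 9.64 to 9.79 on the Tat−/Meth arrays and 9.75 to 10.33 on the others. Across all tested genes, the scaled signal was higher in Tat−/Meth vs. Tat−/Sal by a median of 0.14 on the log2 scale, and lower in Tat+/Meth vs. Tat−/Meth by a median log2 change of −0.15. Both comparisons share the Tat−/Meth arrays.

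Dopamine is made in 2 steps: tyrosine hydroxylase (*Th*), the rate-limiting enzyme, turns tyrosine into L-DOPA with tetrahydrobiopterin as cofactor, and aromatic L-amino acid decarboxylase (*Ddc*) turns L-DOPA into dopamine. The vesicular transporter VMAT2 (*Slc18a2*) loads monoamines into synaptic vesicles, and transporters in the plasma membrane for dopamine (*Slc6a3*), noradrenaline (*Slc6a2*) and serotonin (*Slc6a4*) take them back up after release. The monoamine oxidases (*Maoa* and *Maob*), in the outer membrane of mitochondria, oxidize them. Meth enters monoamine nerve endings through the plasma membrane transporters, acts on VMAT2 and on the trace amine receptor TAAR1 (*Taar1*), and causes release of the transmitters into the synaptic space. The cell bodies of the dopamine neurons that project to the striatum lie in the midbrain, and most of their mRNA is there, whereas monoamine oxidases are also made by other cells, among them astrocytes.

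Values below are processed signals on the log2 scale, after each array was divided by its own 75th percentile. Tests are those of limma over all 20 arrays, with the Benjamini-Hochberg adjustment over 15102 tested genes and an adjusted *p* of 0.05 as the threshold, and each gene is represented by its brightest probe unless another is named. Of the 9 genes, 5 entered the test (*Th*, *Ddc*, *Slc18a2*, *Maoa* and *Maob*), and these were well above background on all 20 arrays. The other 4 genes did not reach a mean of 6 in any group. *Slc6a3* was well above background on 12 of 20 arrays, and *Slc6a2*, *Slc6a4* and *Taar1* on 0 of 20. In bulk tissue, fewer cells of a type and less RNA per cell cannot be told apart.

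The differences were small: none of the 5 tested genes changed above 2-fold in any comparison, and the values of the compared groups overlapped for each of the 9 genes in each comparison. In Tat−/Meth vs. Tat−/Sal, 0 of the 5 tested genes passed the threshold, against 50.2% of all tested genes (6.85% with a change above 2-fold), and 0 had an unadjusted *p* under 0.05, against 56.4%. In Tat+/Meth vs. Tat−/Meth, 1 of 5 passed, *Th*, which was higher, against 54.4% of all (7.22% above 2-fold), and 3 had an unadjusted *p* under 0.05, against 59.3%. In Tat+/Sal vs. Tat−/Sal, 0 of 5 passed, against 1.42% of all (0.0199% above 2-fold), and 1, *Slc18a2*, had an unadjusted *p* under 0.05, against 20.5%.

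Neither remaining comparison gave a call. In Tat+/Meth vs. Tat+/Sal, 0 of 5 genes and 0% of all genes passed, and *Slc18a2* had an unadjusted *p* under 0.05, as did 12.2% of all. In Tat+/Meth vs. Tat−/Sal, 0 of 5 and 0% passed as well, and *Th* had an unadjusted *p* under 0.05, as did 7.79% of all. For the difference between the effect of Meth in Tat+ and in Tat− mice (the interaction), 0 of 5 passed, against 36% of all (7.44% above 2-fold), and 0 had an unadjusted *p* under 0.05, against 45.3%. The share of all tested genes whose 2 groups did not overlap was 36.2% in Tat−/Meth vs. Tat−/Sal, 38.0% for Tat+/Meth with Tat−/Meth, 4.85% for Tat+/Sal with Tat−/Sal, 2.28% for Tat+/Meth with Tat+/Sal and 1.68% for Tat+/Meth with Tat−/Sal.

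**Figure D1:**
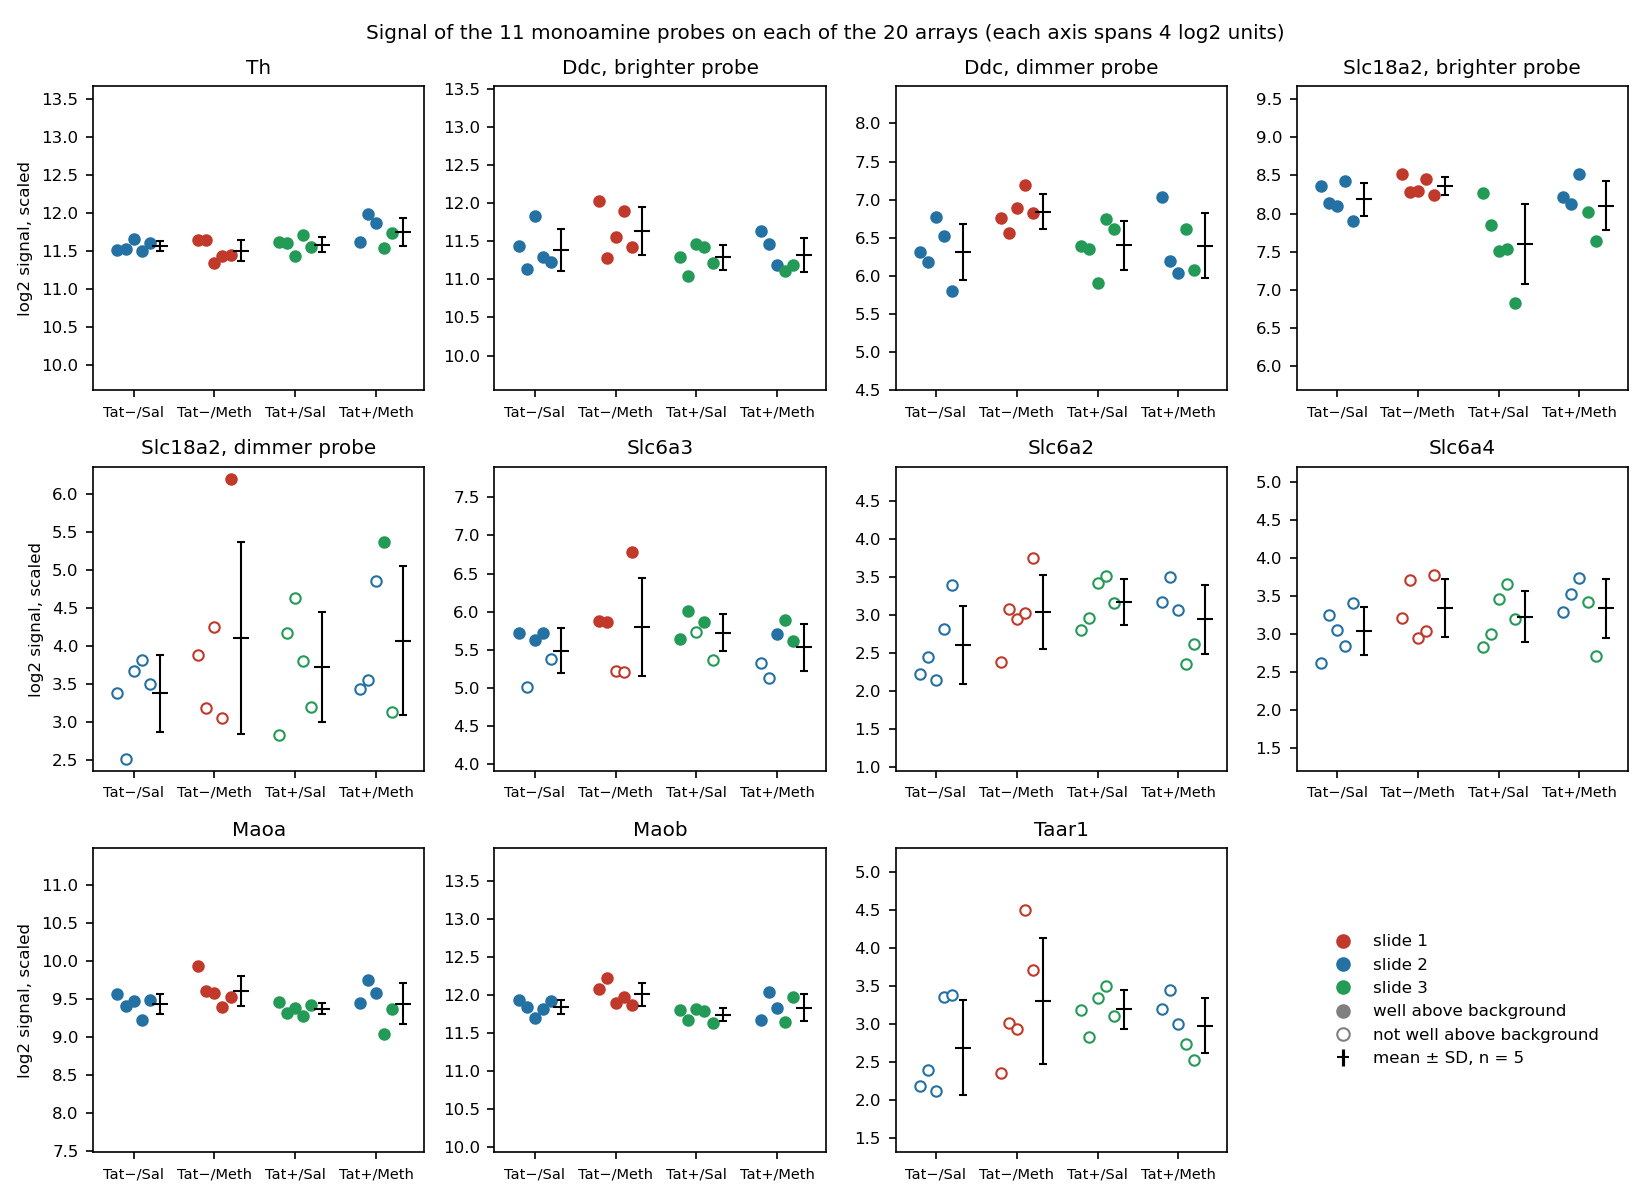
Scaled log2 signal (y axis) of each of the 11 probes in each of the 20 arrays, by group. Points are arrays in the colour of their slide, open where the probe was not well above background, and crosses with bars are the mean ± SD (n = 5). The groups overlap in every panel, the brighter *Slc18a2* probe is lowest in Tat+/Sal, and *Slc6a2*, *Slc6a4* and *Taar1* are open symbols throughout.

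The synthesis enzymes come first. The 300-base windows around the annotated starts of *Th*, *Slc18a2* and *Ddc* (250 bases before the start and 50 from it, RefSeq, GRCm38.p6, gene strand) are shown because their letters match elements known from cyclic AMP signalling and nuclear receptors. Capitals mark the matches to the motifs searched on both strands, namely the full cyclic AMP response element TGACGTCA, the NR4A site (NBRE) AAAGGTCA and the TATA box TATAAA. They are in order chr7:142899946-142900245 (minus strand), chr19:59260628-59260927 (plus strand) and chr11:11898095-11898394 (minus strand).
Th: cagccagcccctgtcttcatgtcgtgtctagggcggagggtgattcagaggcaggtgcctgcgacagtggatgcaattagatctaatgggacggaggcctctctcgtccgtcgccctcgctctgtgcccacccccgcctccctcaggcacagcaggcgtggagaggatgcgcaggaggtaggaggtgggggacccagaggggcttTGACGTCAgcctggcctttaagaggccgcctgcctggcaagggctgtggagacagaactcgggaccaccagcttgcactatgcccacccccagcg
Slc18a2: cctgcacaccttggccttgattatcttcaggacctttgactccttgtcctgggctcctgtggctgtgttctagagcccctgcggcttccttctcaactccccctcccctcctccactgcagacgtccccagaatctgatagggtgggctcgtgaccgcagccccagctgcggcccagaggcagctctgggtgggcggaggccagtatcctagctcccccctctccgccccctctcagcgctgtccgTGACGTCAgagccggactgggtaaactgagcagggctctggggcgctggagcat
Ddc: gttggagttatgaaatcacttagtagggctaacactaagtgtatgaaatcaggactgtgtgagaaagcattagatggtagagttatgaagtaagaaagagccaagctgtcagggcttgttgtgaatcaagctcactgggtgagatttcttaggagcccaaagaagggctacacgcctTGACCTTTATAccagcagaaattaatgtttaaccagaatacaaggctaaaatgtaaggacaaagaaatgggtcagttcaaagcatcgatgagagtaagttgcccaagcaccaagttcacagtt
TGACGTCA started at position −45 relative to the start in *Th* and at −4 in *Slc18a2*, and 1.79% of the 32851 windows of this length in the table held it (588). In the *Ddc* window, TGACCTTT, which is AAAGGTCA on the other strand, started at −73 and ran into TTTATA, which is TATAAA on the other strand, at −68. AAAGGTCA was in 1.51% of all windows on either strand, and TATAAA in 13.6%. The other *Ddc* window in the table, and those of *Slc6a3*, *Slc6a4* and *Maoa*, held none of the 3. A match of letters is a description and no evidence of binding.

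*Th* was steady across the saline groups and highest in Tat+/Meth. In replicates 1 to 5, its signal was 11.52, 11.53, 11.66, 11.50 and 11.60 in Tat−/Sal, and 11.65, 11.65, 11.34, 11.44 and 11.44 in Tat−/Meth. It was 11.62, 11.61, 11.44, 11.71 and 11.55 in Tat+/Sal, and 11.62, 11.99, 11.87, 11.54 and 11.74 in Tat+/Meth. The highest 3 Tat+/Meth arrays lay above all Tat−/Meth arrays, and the other 2 lay within their range. The means were 11.56 ± 0.068 (SD, n = 5) in Tat−/Sal, 11.50 ± 0.137 in Tat−/Meth, 11.58 ± 0.099 in Tat+/Sal and 11.75 ± 0.184 in Tat+/Meth, so that the spread was widest in the group with the highest mean.

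*Th* was 0.25 ± 0.0825 (SE) log2 units, or 1.19-fold, higher in Tat+/Meth vs. Tat−/Meth (95% interval 0.07 to 0.42, limma adjusted *p* = 0.0170), where 16% of all tested genes were higher and 38.5% lower. The call was lost with *p*-values from these 2 groups alone (adjusted *p* = 0.0576), with each array scaled to its median (0.09, adjusted *p* = 0.701), with the values deposited in the series table (0.20, adjusted *p* = 0.0555), and with the methods' test of 2 groups after adjustment (adjusted *p* = 0.0780). It was also lost when Tat−/Meth replicate 3 was left out (0.21, adjusted *p* = 0.0520) and when Tat+/Meth replicate 2 was left out (0.19, adjusted *p* = 0.0570). Against Tat−/Sal, *Th* in Tat+/Meth was higher by 0.19 (0.02 to 0.36, adjusted *p* = 0.640), and within the slide that held both groups (3 Tat+/Meth and 5 Tat−/Sal arrays) by 0.27. Against Tat+/Sal it was higher by 0.17 (−0.01 to 0.34, adjusted *p* = 0.419), and within the slide that held 2 Tat+/Meth and 5 Tat+/Sal arrays by 0.05. The difference in Tat−/Meth vs. Tat−/Sal was −0.06 (−0.23 to 0.12, adjusted *p* = 0.589) and that in Tat+/Sal vs. Tat−/Sal was 0.02. The interaction was 0.22 (adjusted *p* = 0.145). With no scaling, *Th* passed in Tat−/Meth vs. Tat−/Sal at −0.48 (limma adjusted *p* = 0.0015), where the median over all genes was −0.29. The interaction then passed at 0.71 (limma adjusted *p* = 0.0015), where that median was 0.35.

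Markers of midbrain dopamine neurons other than the 9 genes had their lowest summed signal in Tat−/Meth, the group alone on its slide. Of the 12 on the list, which are mostly transcription factors and receptors of these cells, 7 were well above background on all arrays, and *En1* and *Foxa1* on none. Of the 8 tested, 5 were lower and 0 higher in Tat−/Meth vs. Tat−/Sal (15.3% of all tested genes were lower), and 5 were higher in Tat+/Meth vs. Tat−/Meth (16% of all). *Chrna6*, 1 of the 8, entered the test only through the groups other than Tat−/Meth. There it had a median of 4.70 and was well above background on 2 of 5 arrays, so that its part in these counts is a description with no test. The log2 of the summed signal of the 12 was 11.003 to 11.42 in Tat−/Meth, 11.51 to 11.85 in Tat−/Sal, 11.44 to 12.34 in Tat+/Sal and 11.65 to 11.91 in Tat+/Meth, so that Tat−/Meth did not overlap with any other group. Of all single tested genes, 36.2% did not overlap between Tat−/Meth and Tat−/Sal, and 38.0% between Tat+/Meth and Tat−/Meth. The brightest of the 12, *Slc10a4*, had a median of 10.09 in Tat−/Meth and 10.49 in Tat−/Sal. Of the tested markers, *Nr4a2* (8.20), *En2* (8.06) and *Ntsr1* (6.98) had their highest group median in Tat−/Meth instead. Some markers of other cells were lowest in Tat−/Meth. The log2 of the summed signal of 6 microglia markers was 16.74 to 16.89 in Tat−/Meth and 17.38 to 17.76 over the other groups. The brightest of them, *Itgam*, had a median of 16.11 in Tat−/Meth and 17.07 in Tat−/Sal. Of the 6, 2 were lower and 0 higher in Tat−/Meth vs. Tat−/Sal, with a median change of −0.07. Single markers of other regions, named after their values were seen, were lower there. Among them were *Hcrt* of the hypothalamus (−1.73), *Tcf7l2* of the thalamus and midbrain (−1.61) and *Fev* of serotonin neurons (−0.95). Of the tested markers on their lists, 1 of 7, 1 of 4 and 1 of 3 were lower, and 0, 1 and 0 higher. The median changes of these lists were 0.32, −0.27 and 0.17. The part of these markers in the values of *Th* was not tested.

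*Ddc* was highest in Tat−/Meth at both of its probes. At the brightest probe, its signal in replicates 1 to 5 was 11.43, 11.14, 11.83, 11.30 and 11.23 in Tat−/Sal and 12.03, 11.29, 11.55, 11.90 and 11.43 in Tat−/Meth. It was 11.30, 11.05, 11.46, 11.42 and 11.21 in Tat+/Sal and 11.64, 11.47, 11.20, 11.11 and 11.18 in Tat+/Meth. The 2 highest Tat−/Meth arrays lay above all others, and the remaining 3 lay within the range of Tat−/Sal. The difference in Tat−/Meth vs. Tat−/Sal was 0.25 ± 0.151 (SE, 95% interval −0.06 to 0.57, adjusted *p* = 0.173), a 1.19-fold change that did not pass the test. It passed without Tat−/Sal replicate 3, the highest of its group (0.36, adjusted *p* = 0.0463). Between the Meth groups, *Ddc* differed in Tat+/Meth by −0.32 (unadjusted *p* = 0.0492, limma adjusted *p* = 0.0831). The medians over all tested genes in these 2 comparisons were 0.14 and −0.15. With no scaling, *Ddc* changed sign in both, to −0.17 and 0.02, where the medians over all genes were −0.29 and 0.19.

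The other *Ddc* probe was likewise highest in Tat−/Meth. Its signal was 6.32, 6.18, 6.77, 6.52 and 5.79 in Tat−/Sal, 6.76, 6.56, 6.89, 7.19 and 6.82 in Tat−/Meth, 6.39, 6.35, 5.91, 6.74 and 6.61 in Tat+/Sal, and 7.04, 6.19, 6.03, 6.61 and 6.08 in Tat+/Meth. When every probe was tested on its own, it differed by 0.53 ± 0.213 (SE, 0.08 to 0.98, adjusted *p* = 0.0728) in Tat−/Meth vs. Tat−/Sal and by −0.45 (adjusted *p* = 0.128) in Tat+/Meth vs. Tat−/Meth. With the mean of both probes as the value of the gene, *Ddc* passed in both comparisons, at 0.39 (adjusted *p* = 0.0439) and −0.39 (adjusted *p* = 0.0435). Between the saline groups *Ddc* differed by −0.10 and did not pass. The source tables do not say which of the 2 annotated *Ddc* starts each probe reports.

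The vesicular transporter gene *Slc18a2* had the widest spread of the 5 tested genes and its lowest values in Tat+/Sal. In replicates 1 to 5, its signal was 8.36, 8.14, 8.10, 8.43 and 7.90 in Tat−/Sal and 8.52, 8.29, 8.29, 8.45 and 8.25 in Tat−/Meth. It was 8.27, 7.86, 7.51, 7.54 and 6.83 in Tat+/Sal and 8.22, 8.12, 8.52, 8.02 and 7.63 in Tat+/Meth. The lowest 4 of the 5 Tat+/Sal arrays lay below all Tat−/Sal arrays, and replicate 1 lay among them. The SD was 0.529 in Tat+/Sal and 0.118 in Tat−/Meth.

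In Tat+/Sal vs. Tat−/Sal, *Slc18a2* differed by −0.59 ± 0.199 (SE, −1.004 to −0.169), a level 1.502-fold lower in Tat+/Sal, with an unadjusted *p* of 0.0085 and a limma adjusted *p* of 0.112. It therefore did not pass over all genes. It passed without Tat+/Sal replicate 1 (−0.75, adjusted *p* = 0.0418) and with the slide as a random block (−0.66, adjusted *p* = 0.0135), for which the estimated correlation within slides was negative, at −0.0623. These 2 groups lay on different slides, joined only by Tat+/Meth arrays on both, and with the slide as a fixed block the difference was −0.13 (adjusted *p* = 0.977). Without Tat+/Sal replicate 5, the lowest array, it was −0.39. Between the Tat+ groups, *Slc18a2* differed in Tat+/Meth by 0.50 (0.09 to 0.92, unadjusted *p* = 0.0204, limma adjusted *p* = 0.325), and by 0.23 within the slide that held both groups.

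In the comparisons with Tat−/Meth and in that of both factors with neither, *Slc18a2* did not pass. The difference was 0.17 (adjusted *p* = 0.491) in Tat−/Meth vs. Tat−/Sal, −0.25 (adjusted *p* = 0.293) in Tat+/Meth vs. Tat−/Meth, and −0.08 in Tat+/Meth vs. Tat−/Sal. The interaction was 0.33 (adjusted *p* = 0.375). The other *Slc18a2* probe was well above background on only 2 of 20 arrays, Tat−/Meth replicate 5 at 6.19 and Tat+/Meth replicate 4 at 5.36, and was not used for a comparison. Averaging it in moved the difference in Tat+/Sal vs. Tat−/Sal to −0.12.

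**Figure D2:**
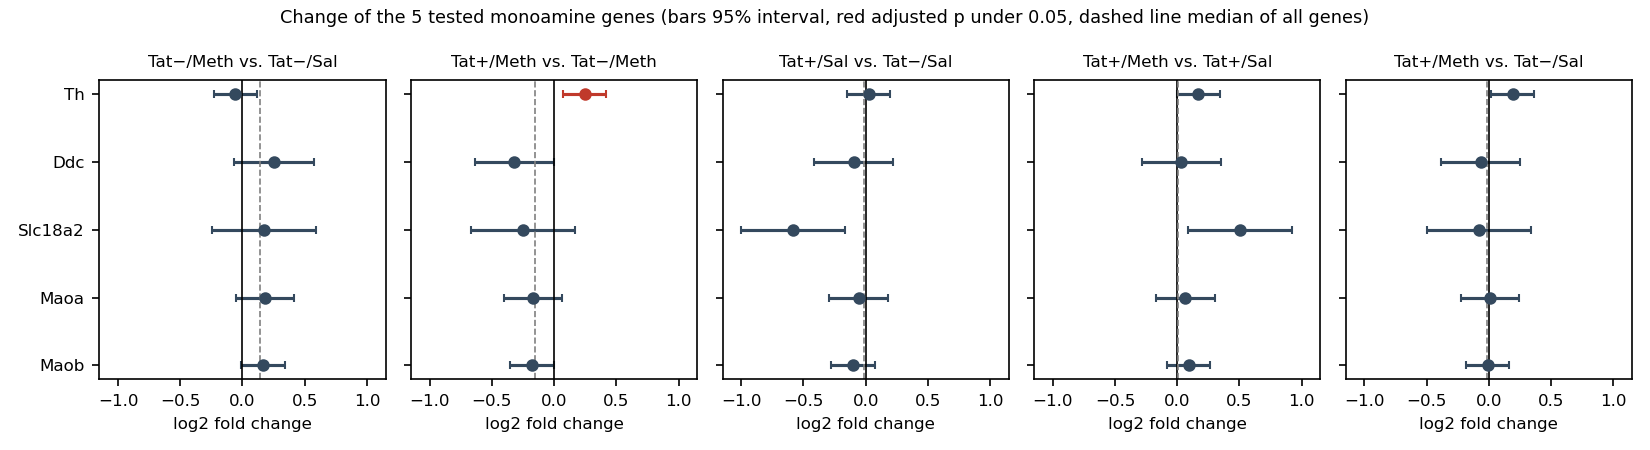
Log2 differences of the 5 tested genes (points) with their 95% intervals (lines) in each comparison. The solid line at 0 is no difference, the dashed line is the median over all 15102 tested genes, and red points passed an adjusted *p* of 0.05. The single red point is *Th* in Tat+/Meth vs. Tat−/Meth, at 0.25.

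Of the plasma membrane transporters, the dopamine transporter gene *Slc6a3* lay at the edge of detection in all groups. It was well above background on 3 of 5 arrays in each group, and its signal ranged from 5.01 to 6.79 over the 20 arrays. The group means were 5.49 in Tat−/Sal, 5.79 in Tat−/Meth, 5.72 in Tat+/Sal and 5.53 in Tat+/Meth, and all ranges overlapped. The noradrenaline transporter gene *Slc6a2* (2.14 to 3.75) and the serotonin transporter gene *Slc6a4* (2.62 to 3.77) were not well above background on any array. The lowest signal that was well above background on an array ranged from 2.69 to 5.52, and no fold is given for these genes.

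The monoamine oxidase genes were measured on all arrays, and both had their highest group mean in Tat−/Meth. The signal of *Maoa*, whose enzyme prefers serotonin and noradrenaline, was 9.57, 9.40, 9.47, 9.22 and 9.48 in Tat−/Sal and 9.93, 9.60, 9.58, 9.40 and 9.53 in Tat−/Meth. It was 9.46, 9.31, 9.38, 9.28 and 9.42 in Tat+/Sal and 9.45, 9.75, 9.58, 9.04 and 9.37 in Tat+/Meth. Of the 5 Tat−/Meth arrays, 3 lay above all Tat−/Sal arrays, and the groups overlapped. The difference was 0.18 (−0.05 to 0.41, adjusted *p* = 0.191) in Tat−/Meth vs. Tat−/Sal, −0.17 (adjusted *p* = 0.205) in Tat+/Meth vs. Tat−/Meth, and −0.06 in Tat+/Sal vs. Tat−/Sal. Between the Tat+ groups it was 0.07.

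*Maob*, whose enzyme is abundant in astrocytes, was 11.94, 11.85, 11.71, 11.81 and 11.92 in Tat−/Sal and 12.09, 12.23, 11.89, 11.98 and 11.87 in Tat−/Meth. It was 11.80, 11.67, 11.82, 11.79 and 11.64 in Tat+/Sal and 11.67, 12.04, 11.83, 11.65 and 11.98 in Tat+/Meth. Of the 5 Tat−/Meth arrays, 3 lay above all Tat−/Sal arrays and the other 2 within their range. *Maob* differed by 0.17 ± 0.0836 (SE, −0.01 to 0.34, adjusted *p* = 0.104) in Tat−/Meth vs. Tat−/Sal, a 1.12-fold change that did not pass, and by −0.18 (unadjusted *p* = 0.0480, limma adjusted *p* = 0.0814) in Tat+/Meth vs. Tat−/Meth. The second difference passed without Tat+/Meth replicate 2 (−0.23, adjusted *p* = 0.0296), without Tat+/Meth replicate 5 (−0.21, adjusted *p* = 0.0472), without Tat−/Meth replicate 5 (−0.21, adjusted *p* = 0.0487), and in the values deposited in the series table (−0.21, adjusted *p* = 0.0301). Both differences changed sign with no scaling, to −0.25 and 0.16, and neither passed there.

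Markers of astrocytes, in whose cells the transgene promoter is active, had their highest summed signal in Tat−/Meth. All 7 were well above background on all arrays, 4 were higher and 0 lower in Tat−/Meth vs. Tat−/Sal (35% of all tested genes were higher), and 5 were lower in Tat+/Meth vs. Tat−/Meth (38.5% of all). The log2 of their summed signal was 16.61 to 16.87 in Tat−/Meth, above the 16.38 to 16.56 of Tat−/Sal, the 16.33 to 16.60 of Tat+/Sal and the 16.35 to 16.54 of Tat+/Meth. Of all single tested genes, 36.2% did not overlap between Tat−/Meth and Tat−/Sal, and 38.0% between Tat+/Meth and Tat−/Meth. Without scaling of the arrays, 1 of the 7 markers was higher and 0 lower in Tat−/Meth vs. Tat−/Sal, with a median change of −0.17 over the 7, and 1 was lower in Tat+/Meth vs. Tat−/Meth, with a median of 0.05. Their part in the values of *Maob* was not tested.

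The receptor gene *Taar1* was not well above background on any array, with signals of 2.126 to 4.502. Markers of the neurons that hold the other monoamines were also few. Of 4 markers of noradrenaline neurons, 0 were well above background on all arrays, and of 6 markers of serotonin neurons, 3 were. The 1 histamine neuron marker used, *Hdc*, was well above background on all arrays.

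The spread between mice of a group was compared between the 5 tested genes. The pooled within-group SD was 0.130 for *Th*, 0.132 for *Maob*, 0.182 for *Maoa*, 0.251 for *Ddc* and 0.333 for *Slc18a2*, against a median of 0.147 over all tested genes. Over the 20 arrays, with the group means removed, *Th* was nearest to *Maoa* (Pearson r = 0.658, Spearman rho = 0.546) and *Maob* (r = 0.603, rho = 0.549) among the 5 tested genes. Of the 10 pairs compared, 0 passed after adjustment, and these 2 had an unadjusted *p* under 0.05. The permutation *p* for *Th* and *Maoa* was 0.0137 for r (adjusted 0.137) and 0.0339 for rho (adjusted 0.218). That for *Th* and *Maob* was 0.0320 for r (adjusted 0.160) and 0.0437 for rho (adjusted 0.218). Without the 2 arrays farthest from the median of *Th*, Tat+/Meth replicates 2 and 4, r was 0.409 and 0.416. With means per group and slide removed, r was 0.570 and 0.633. *Maoa* and *Maob* had r = 0.489 (permutation *p* = 0.101, adjusted 0.335), and the remaining 7 pairs had r of −0.073 to 0.361. *Th* and *Slc18a2*, both known from dopamine neurons, had r = 0.155. With arrays scaled to the median 3 of the 10 pairs passed, those between *Th*, *Maoa* and *Maob*, and with no scaling 7 passed.

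**Figure D3:**
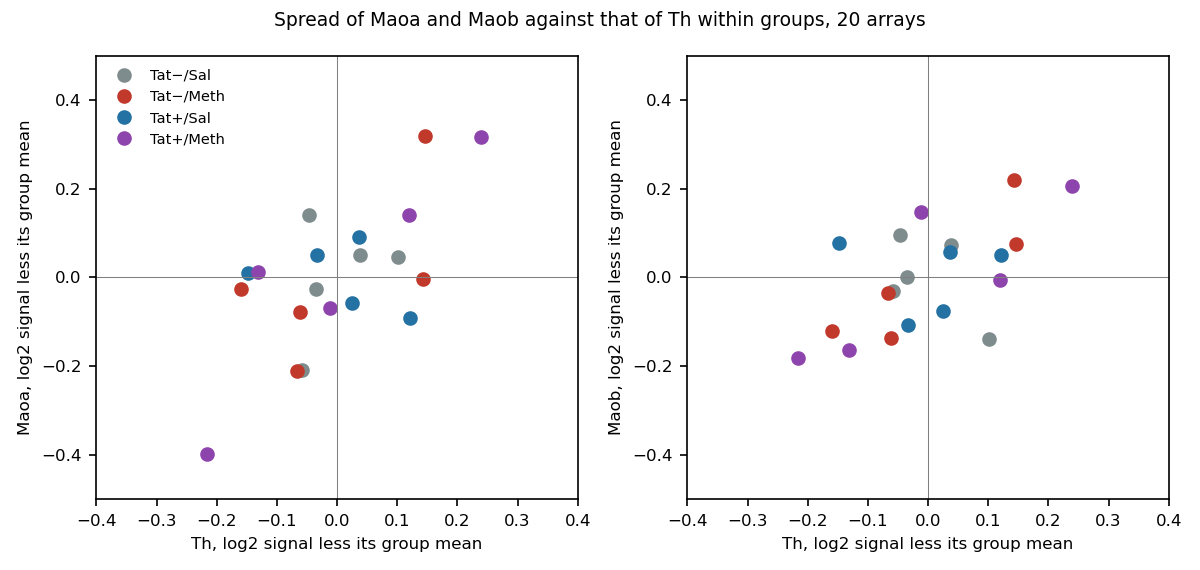
Deviation of *Maoa* (left) and *Maob* (right) from the group mean against that of *Th*, in log2 units, 1 point per array and 1 colour per group. Values of r were 0.658 and 0.603, with Tat+/Meth replicates 2 and 4 at the right and left ends.

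The genes whose values followed each of the 5 most closely over the 20 arrays, again with group means removed, differed from gene to gene. They were *Cpq* (r = 0.836), *Crcp* (0.799) and *Hspb6* (0.792) for *Th*, and *Emilin2* (0.870), *Slc7a4* (0.858) and *Slc25a13* (0.836) for *Ddc*. They were *Pacc1* (0.905), *Cdk8* (0.837) and *Sp140* (0.826) for *Slc18a2*. For the oxidases they were *Lxn* (0.848), *Dis3l2* (0.825) and *Rbmx* (0.822) for *Maoa*, and *Zfand3* (0.875), *Txnrd1* (0.839) and *Zfp703* (0.825) for *Maob*. These are the highest of 15053 correlations each and are given as a description.

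Of the other lists of the pathway, that of the cofactor genes had the largest share of calls among lists with over 2 tested genes. Tyrosine hydroxylase and the tryptophan hydroxylases need tetrahydrobiopterin, which is made from GTP by *Gch1*, *Pts* and *Spr* and restored after use by *Pcbd1*, *Pcbd2* and *Qdpr*. *Gchfr* encodes the feedback regulator of *Gch1*. The list holds 8 genes, all tested, and 7 were higher and 0 lower in Tat−/Meth vs. Tat−/Sal, where 35% of all tested genes were higher. Their median change was 0.39, and that of all tested genes 0.14. Against Tat−/Meth, in a comparison that shares these arrays, Tat+/Meth had 7 of 8 lower and 0 higher, where 38.5% of all were lower, with a median of −0.39 against −0.15.

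Among the cofactor genes, *Gchfr* was higher by 0.54 (1.46-fold, adjusted *p* = 0.0117), *Spr* by 0.54 (adjusted *p* = 0.0339) and *Pcbd1* by 0.50 (adjusted *p* = 6.8e-05) in Tat−/Meth vs. Tat−/Sal by limma. *Pcbd1* lay between 11.32 and 11.55 in Tat−/Meth and between 10.76 and 11.09 in Tat−/Sal, without overlap, as 36.2% of all tested genes did. *Spr* lay between 10.999 and 11.92 in Tat−/Meth and between 10.06 and 11.10 in Tat−/Sal, so that these 2 groups overlapped. *Pts* lay between 11.53 and 11.91 in Tat−/Meth and between 10.96 and 11.28 in Tat+/Meth, a difference of −0.55 (adjusted *p* = 8.59e-06). In the same comparison *Spr* differed by −0.70 (adjusted *p* = 0.0071) and *Gchfr* by −0.42 (adjusted *p* = 0.0414). Without Tat−/Sal replicate 5, *Spr* differed by 0.35 (adjusted *p* = 0.109) in the first comparison, and without Tat−/Meth replicate 5, *Gchfr* by −0.23 (adjusted *p* = 0.118) in the second.

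The cofactor result depended on scaling each array. The counts were 8 and 8 after quantile normalization and 5 and 7 after scaling to the median. With no scaling, 0 of 8 passed in either comparison, with medians of −0.03 and −0.05 against −0.29 and 0.19 over all genes. Without scaling, 0.827% of all tested genes were called higher and 47.2% lower in Tat−/Meth vs. Tat−/Sal, and 35% higher and 2.14% lower in Tat+/Meth vs. Tat−/Meth. In the comparisons without Tat−/Meth, 0 of the 8 passed (1 at an unadjusted *p* of 0.05 in Tat+/Sal vs. Tat−/Sal, and 3 between the Tat+ groups).

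**Figure D4:**
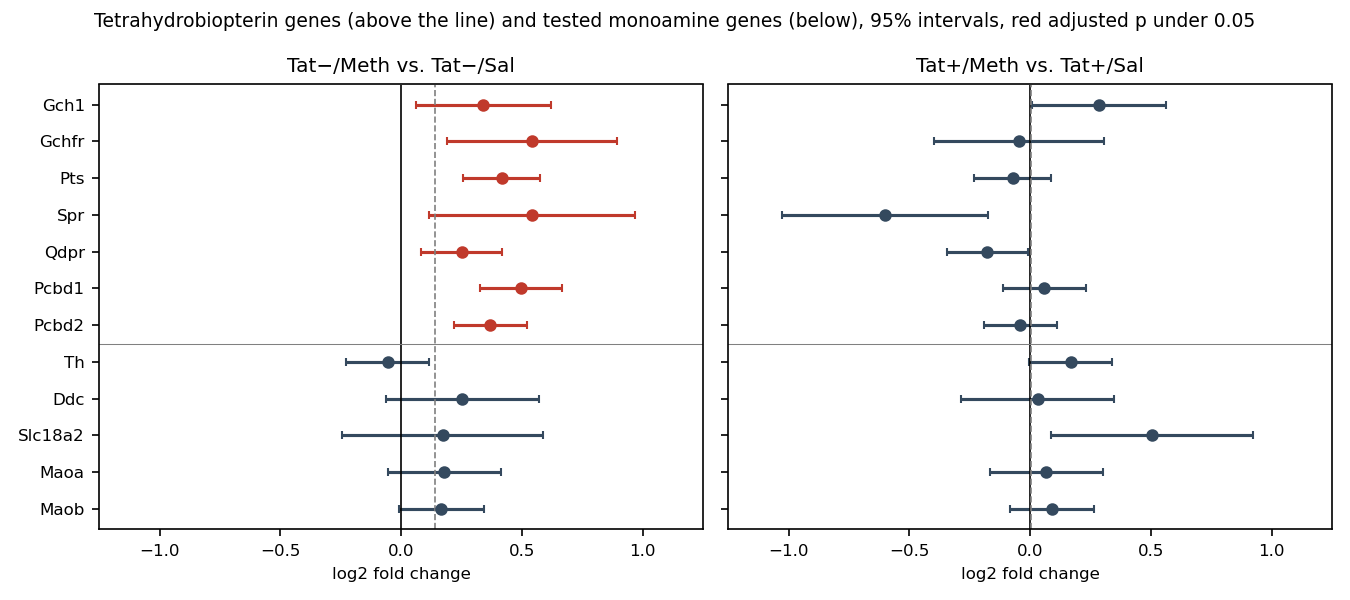
Log2 differences of 7 of the 8 tetrahydrobiopterin cofactor genes (above the line) and of the 5 tested monoamine genes (below it), with 95% intervals, for Meth without Tat (left) and with Tat (right). The dashed line is the median of all tested genes, and red points passed an adjusted *p* of 0.05, as all 7 cofactor genes shown did on the left and 0 on the right. The gene left out is not reported here by name and passed in neither panel.

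Of the other enzymes of monoamine synthesis, 2 of 6 were tested. *Pnmt*, which turns noradrenaline into adrenaline, was higher by 0.36 (adjusted *p* = 0.0162) in Tat−/Meth vs. Tat−/Sal and lower in Tat+/Meth vs. Tat−/Meth, at −0.30 (adjusted *p* = 0.0415), and both signs turned without scaling (−0.06 and 0.04). *Hdc*, which makes histamine, did not pass. *Tph1*, *Tph2* and *Dbh* were too dim to be tested.

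Of 6 other transporters of amines, 2 were tested. *Slc18b1*, a vesicular polyamine transporter, was higher by 0.44 (adjusted *p* = 4.2e-04) in Tat−/Meth vs. Tat−/Sal and differed by −0.45 (adjusted *p* = 2.9e-04) in Tat+/Meth vs. Tat−/Meth. Its values in Tat−/Meth, 11.07 to 11.31, lay above those in Tat−/Sal, 10.49 to 10.86, and 36.2% of all tested genes likewise did not overlap. Without scaling both calls were lost (0.02, adjusted *p* = 0.904, and −0.12, adjusted *p* = 0.542).

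Of 12 other genes of monoamine breakdown, 10 were tested, and 2 were higher and 2 lower in Tat−/Meth vs. Tat−/Sal, where 35% of all tested genes were higher and 15.3% lower. *Akr1b3*, an aldose reductase, was higher by 0.53 (adjusted *p* = 1.1e-06), with 13.93 to 14.10 in Tat−/Meth and 13.39 to 13.58 in Tat−/Sal. *Hnmt*, which methylates histamine, was higher by 0.39 (adjusted *p* = 0.0026), and its sign turned without scaling (−0.03). *Aoc2*, a copper amine oxidase, was lower, at −1.16, a 2.24-fold change (adjusted *p* = 1.1e-10), with 15.83 to 16.16 in Tat−/Meth and 17.14 to 17.25 in Tat−/Sal. *Aldh3a2*, a fatty aldehyde dehydrogenase, was lower, at −0.39 (adjusted *p* = 3.5e-06). Between the Meth groups, where 16% of all genes were higher in Tat+/Meth and 38.5% lower, 2 were higher, *Aoc2* (1.21, adjusted *p* = 5.6e-11) and *Aldh3a2* (0.38, adjusted *p* = 5.0e-06). There, 3 were lower, namely *Aldh2* (−0.58, adjusted *p* = 0.0130), the mitochondrial aldehyde dehydrogenase, *Akr1b3* (−0.55, adjusted *p* = 5.0e-07) and *Hnmt* (−0.47, adjusted *p* = 5.0e-04). Without scaling *Akr1b3* lost both calls (0.11, adjusted *p* = 0.361, and −0.22, adjusted *p* = 0.0716), and *Aldh2* (−0.24, adjusted *p* = 0.460) and *Hnmt* (−0.13, adjusted *p* = 0.535) lost theirs between the Meth groups. With median scaling *Aldh3a2* lost both (−0.27, adjusted *p* = 0.205, and 0.22, adjusted *p* = 0.282).

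Of 14 other trace amine receptors, 13 had a probe and 1 was tested. It is *Taar5*, which entered the test only through Tat−/Sal, the group where it was high, so that its values are a description with no test. Its probe was clear of background on 5 of 5 Tat−/Sal arrays, at 6.42 to 6.52, on 4 of 5 Tat+/Sal arrays, at 5.33 to 6.03 over all 5, and on 3 of 5 Tat+/Meth arrays, at 4.44 to 6.18 over all 5. Of the Tat−/Meth arrays, 0 of 5 passed that limit (2.49 to 3.801). No fold is given for *Taar5*, since the lowest signal well above background on an array is not a limit of detection. On Tat−/Meth replicate 3 that lowest signal was 3.38, yet *Slc6a3* at 5.22 was not well above background there.

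Of 12 partner proteins of the transporters and of tyrosine hydroxylase, all tested, 1 was lower and 0 higher in Tat−/Meth vs. Tat−/Sal (against 15.3% and 35% over all genes): *Ywhaz*, a 14-3-3 protein, at −0.46 (adjusted *p* = 0.0201). Between the Meth groups, 2 were higher in Tat+/Meth (16% of all), among them *Ywhaz* (0.43, adjusted *p* = 0.0243). There, 2 were lower (38.5% of all), *Pick1*, a PDZ-domain partner of the dopamine transporter (−0.40, adjusted *p* = 0.0185), and *Prkcb*, a protein kinase C (−0.26, adjusted *p* = 0.0271), whose sign turned without scaling (0.08). Without scaling *Pick1* differed by −0.06 (adjusted *p* = 0.835). With the mean over its probes, *Ywhaz* differed by −0.07 and 0.05, and with median scaling by −0.33 (adjusted *p* = 0.258) and 0.27 (adjusted *p* = 0.327). Where Tat−/Meth took no part, 0 genes of these 5 lists passed at the adjusted threshold. At an unadjusted *p* of 0.05, 6 of the 12 partners passed between the saline groups, where 20.5% of all genes did, and 3 of the 12 between the Tat+ groups, where 12.2% did. The saline groups lay on different slides.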

How the data were processed

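RNA of 20 mice was hybridised to one-colour Agilent mouse arrays (62976 spots), which the authors scanned and read with Feature Extraction. The deposited values used are processed signal intensity, background-subtracted by that software, and the flags for signals well above background. The labels name Cy3, and the methods of the study name another array format, dye and scanner. The authors' series table, whose values were taken as intensities and put on the log2 scale, was an alternative only. Outlier spots (4278) and control spots were left out, spots of a probe averaged, and each array divided by its 75th percentile and put on the log2 scale. Of all probes, 55.3% to 70.9% were well above background on an array, and the number of arrays limits precision. Names came from RefSeq through the probes' transcript identifiers. Genes with a group mean of at least 6 were tested with limma 3.58.1 (R 4.3.3), 1 mean per group, at an adjusted p of 0.05, with a 2-fold limit counted apart. The code was tested on simulated data.

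The 9 genes and all lists were chosen with earlier results of these data known. Of the pathway lists, genes past the threshold are named, at most 3 per list, comparison and direction, and for each of the 5 tested genes the 3 genes most like it. Some genes of the lists enter the counts and are not reported here by name. Correlations used 100000 permutations within groups. Replicate numbers name separate mice. The alternatives were other scalings and backgrounds, the series table, other filters and probe rules, the slide as a block, other tests and leaving out each mouse.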

Additional observations from a re-analysis of the deposited data

Results flagged for a closer look

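None of the 44 groups of 5 arrays formed by the 11 probes of the 9 genes held an array that stood apart from the other 4 (a gap over 0.71 of the range). With the named pathway genes, 4 of 104 groups did, and chance gives about 1 in 20. *Spr* was 10.061 in Tat−/Sal replicate 5, below the other Tat−/Sal arrays at 10.88 to 11.10. *Pnmt* was 7.8865 in Tat+/Sal replicate 2, above the others at 7.67 to 7.73. *Pick1* was 9.4444 in Tat+/Sal replicate 3, below 9.64 to 9.72. *Prkcb* was 16.516 in Tat−/Meth replicate 5, below the others at 16.89 to 17.02.

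The effect of Meth differed between Tat+ and Tat− mice (limma interaction, adjusted *p* under the threshold) for 0 of the 5 tested genes, where 36% of all tested genes passed. *Taar5*, whose values are a description with no test, is left out here. Of the other named pathway genes, the effect differed for 11. They are named because they passed in some comparison, so that this count is a description. Tat−/Meth enters every one of these values, and its slide cannot be told apart from the group. The log2 difference of the 2 effects was 1.24 for *Aoc2* and 0.39 for *Aldh3a2*. It was −1.14 for *Spr*, −0.74 for *Aldh2*, −0.71 for *Pick1*, −0.58 for *Akr1b3*, −0.49 for both *Pts* and *Pnmt*, −0.44 for *Pcbd1*, −0.42 for *Hnmt* and −0.38 for *Slc18b1*.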

How the results depend on the processing

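Over the alternatives that keep all mice, the 5 tested genes gave 450 values, of which 400 kept direction and side of the threshold, 36 changed sign, 10 gained a call with their sign kept and 4 lost one. Of the 36, 1 passed with its sign turned (*Maob*, interaction, no scaling, 0.41, adjusted *p* = 0.0367). The named pathway genes, *Taar5* among them, gave 519, of which 448 kept both, 7 changed sign and lost the call, and 64 lost the call with their sign kept. The cause of each change was not tested. The median scaling, the 2 groups alone and the methods' *t*-test after adjustment each gave 0 called genes of the 9 in Tat+/Meth vs. Tat−/Meth, against 1. The mean over probes gave 1 for Tat−/Meth against Tat−/Sal and 2 for Tat+/Meth against Tat−/Meth. The normexp background gave 1, 4 and, for the interaction, 1, with all 9 genes tested. No scaling gave 1 in Tat−/Meth vs. Tat−/Sal (*Th*, −0.48, adjusted *p* = 0.0015) and 2 for the interaction. The slide as a random block, with an estimated correlation of −0.0623, gave 2 in Tat+/Meth vs. Tat−/Meth, 1 in Tat+/Sal vs. Tat−/Sal and 1 for the interaction (*Th*, 0.26, adjusted *p* = 0.0376). Leaving out 1 mouse gave 0 to 1 for Tat−/Meth against Tat−/Sal, 0 to 2 for Tat+/Meth against Tat−/Meth (0 without Tat−/Meth replicate 3, and 2 without Tat−/Meth replicates 2 or 5 or Tat+/Meth replicates 1 or 5) and 0 to 1 in Tat+/Sal vs. Tat−/Sal. Correlated pairs numbered 3 with median scaling and 7 with no scaling. For the cofactor genes, an alternative added after seeing the data, no scaling gave 0 in both comparisons, and the methods' *t*-test gave 3 in Tat−/Meth vs. Tat−/Sal. At an adjusted *p* of 0.01 and 3-fold, as at 2-fold, 0 of the 9 genes passed.

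These values changed sign. With no scaling, Tat−/Meth vs. Tat−/Sal gave *Maob* −0.25, *Ddc* −0.17, *Maoa* −0.24, *Slc18a2* −0.25, *Hnmt* −0.029 and *Pnmt* −0.060, median scaling gave *Th* 0.066, and the series table gave *Th* 0.0073. No scaling also gave, for Tat+/Meth against Tat−/Meth, *Maob* 0.16, *Ddc* 0.019, *Maoa* 0.17, *Slc18a2* 0.085, *Prkcb* 0.082 and *Pnmt* 0.043. For Tat+/Meth against Tat+/Sal, median scaling gave *Maob* −0.018, *Ddc* −0.078 and *Maoa* −0.043, the normexp background *Maoa* −0.00018, and the slide as a fixed block *Ddc* −0.14 and *Maoa* −0.17. In Tat+/Sal vs. Tat−/Sal, no scaling gave *Th* −0.12, median scaling *Maoa* 0.015, the fixed slide block *Ddc* 0.19 and *Maoa* 0.33, and the random slide block *Th* −0.0076. For Tat+/Meth against Tat−/Sal, *Maoa* was −0.028 with median scaling, −0.029 with normexp, −0.074 with no scaling, −0.023 in the series table and −0.017 with the random slide block. There, the fixed slide block gave *Maob* 0.0015, *Ddc* 0.050 and *Slc18a2* 0.10, and the mean over probes *Ddc* 0.0051 and *Slc18a2* 0.30. For the interaction, no scaling gave *Maob* 0.41, *Ddc* 0.26, *Maoa* 0.37, *Hnmt* 0.064, *Pcbd1* 0.048 and *Slc18b1* 0.10, median scaling *Th* −0.0076, and the mean over probes *Slc18a2* −0.030. Leaving out 1 mouse turned signs of uncalled values: *Ddc* −0.050 to 0.083 and *Maoa* −0.013 to 0.17 in Tat+/Meth vs. Tat+/Sal, *Th* −0.0068 to 0.060 and *Ddc* −0.16 to 0.015 in Tat+/Sal vs. Tat−/Sal, and *Maob* −0.061 to 0.035, *Ddc* −0.15 to 0.046, *Maoa* −0.071 to 0.11 and *Slc18a2* −0.19 to 0.036 for Tat+/Meth against Tat−/Sal.

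Leaving out 1 mouse also lost calls of pathway genes. In Tat−/Meth vs. Tat−/Sal these were *Spr* (Tat−/Meth replicates 1, 4 and 5, Tat−/Sal replicate 5) and *Ywhaz* (Tat−/Meth replicate 5, Tat−/Sal replicate 2). Between the Meth groups they were *Gchfr* (Tat−/Meth 1, 2 and 5, Tat+/Meth 1, 3, 4 and 5), *Pnmt* (Tat−/Meth 3, 4 and 5, Tat+/Meth 2, 3 and 5), *Prkcb* (Tat−/Meth 1 to 4, Tat+/Meth 3), *Ywhaz* (Tat−/Meth 5, Tat+/Meth 1, 4 and 5) and *Pick1* (Tat+/Meth 3 and 5). For the interaction, 9 of 20 arrays lost the call of *Aldh2* and 5 that of *Pnmt*.

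With the replicate number as a block, 1 gene was called in Tat+/Sal vs. Tat−/Sal, against 0 (*Slc18a2*, −0.59, adjusted *p* = 0.0450), and no other call of the 9 genes changed, while *Gchfr* lost its call between the Meth groups (adjusted *p* = 0.0532). The numbers name separate mice, with 1 mouse per array. Same-numbered arrays had correlations of deviations from the group means of −0.176 to 0.358, and 8 of 30 pairs were above 0.1. In 11 of 30 comparisons of an array with another group it correlated best with its own number, which 1 of the 5 arrays there bears. These correlations cannot show what, if anything, arrays of equal number share.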
